A study of Mus musculus with 6 samples.

Results

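The T cell receptor beta chain is described here through the V and J genes that build it. Every V or J name on a deposited beta chain (TRB) contig was taken as a member, which gave 22 TRBV and 12 TRBJ names. These 34 names stood beside 133 V and J names of the alpha chain and 32285 genes of the expression matrix. No measured level was used to choose them. One name joined 2 genes, TRBV12-2+TRBV13-2, and was counted as TRBV13-2 for the reason given with the sequences, so that 21 TRBV genes remained.

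T cells had been sorted from CT2A tumors grown in the brain of wild-type C57BL/6J mice of 6 to 8 weeks. CT2A is a mouse glioma cell line, and the sort kept cells with CD3 and either CD4 or CD8 on the surface. The labels give 16 tumors at day 13, in replicates that each pooled 4 mice, and 4 tumors at day 19. Each day was 1 capture with 10x Genomics 5′ chemistry, read out as gene expression, antibody tags and receptor contigs. The receptor contigs of each day came as 4 sets, and the labels do not say which mice or pools a set holds. With 1 capture a day, day, capture and pooling cannot be told apart, and no p-value is given. Ranges over the 8 sets and intervals that cover counting error only stand in their place.

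A beta chain gene is assembled in the thymus by joining a V, a D and a J segment. The V gene encodes the CDR1 and CDR2 loops, which mostly face the MHC molecule, and the CDR3 loop spans the join and mostly faces the peptide. The J segments lie in 2 clusters, each followed by its own constant gene, TRBC1 or TRBC2. CD8 T cells see peptide on MHC class I and CD4 T cells see peptide on MHC class II, and Foxp3 marks regulatory CD4 T cells.

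The 8 sets held 13041 TRB contigs on 12207 barcodes, between 382 and 2778 barcodes a set, with a median of 9 to 12 UMIs a contig. A second TRB chain was present on 834 barcodes, 6.83%. After the filters on the matrix, 6039 cells had exactly 1 TRB chain, of which 3755 had a UMI of Cd8a or Cd8b1 but no Cd4 UMI (CD8 cells) and 1233 the reverse (CD4 cells). A further 309 cells had both and 742 had neither, and these were not used between classes. A clonotype is a V gene, J gene and CDR3 nucleotide sequence within a set, counted once in each class where it had a cell. This gave 1668 CD8 clonotypes at day 13, 1021 CD8 clonotypes at day 19, and 540 and 432 CD4 clonotypes on those days.

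Cd3d, Cd3e and Cd3g, subunits of the receptor complex, were detected in 99.1%, 99.5% and 98.6% of the CD8 and CD4 cells. Other cell types' markers were uneven between the classes. At least 3 UMIs of the macrophage and monocyte list were found in 31.4% of CD8 cells at day 13 and 54.2% at day 19, against 61.3% and 66.4% of CD4 cells. The summed level of that list was 2529 and 3294 CPM (UMIs scaled to the same total) in CD8 cells and 10206 and 10137 in CD4 cells, and all 10 of its genes were detected, from Csf1r in 22.5% of cells to Fcer1g in 48.0%. A UMI of the NK list (Eomes, Klrb1c, Ncr1) was present in 31.7% and 34.3% of CD8 cells and 3.89% and 4.05% of CD4 cells. This was mostly through Eomes, found in 20.5% of the cells of both classes together, against 7.28% for Klrb1c and 0.561% for Ncr1. Dendritic list UMIs were present in 44.1% to 60.9% of cells over the classes and days, mostly through Ccr7, while the B cell, neutrophil and gamma-delta T lists stayed at or under 16.8%. Of the genes for receptor rearrangement, Rag1 and Rag2 were at 0 and Dntt was found in 0.160% of cells. Between the days, 53 TRB barcodes were the same, and none of these carried an identical CDR3.

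The genes lie on mouse chromosome 6 (build mm10, GRCm38), where RefSeq lists 35 Trbv and 14 Trbj entries. Among the V genes that the results turn on, TRBV12-1 lies at chr6:41113567-41114067, TRBV12-2 at chr6:41118864-41119364 and TRBV13-2 at chr6:41121396-41121832. TRBV14 lies at chr6:41135167-41135616, TRBV20 at chr6:41188273-41188977, TRBV29 at chr6:41271403-41271881, and TRBV31, beyond the J and constant genes, at chr6:41557693-41558371. All are listed as V segments except Trbv29, which RefSeq marks as a pseudogene although 735 productive contigs used it. Of the 14 Trbv entries that no contig named, 11 are marked as pseudogenes. Trbj1-7 and Trbj2-6 were named by no contig.

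The CDR1 and CDR2 codons of the TRBV12 and TRBV13 genes are shown because TRBV12-1 and TRBV12-2 had the widest ratios between the classes and TRBV13-2 was the most used V gene of CD4 clonotypes, while the genes of each family are close in sequence, so that the contig caller's choice between them matters. The sequences are the most frequent ones of the contigs, 5′ to 3′, and capitals mark the bases at which the genes of a family differ.
TRBV12-1 CDR1: tctggacatAGcAAt
TRBV12-2 CDR1: tctggacatCTcTCt
TRBV12-1 CDR2: cattatgaAaaGGtggag
TRBV12-2 CDR2: cattatgaTaaAAtggag
TRBV13-1 CDR1: aataGccaCAacTaC
TRBV13-2 CDR1: aataAccaCAacAaC
TRBV13-3 CDR1: aataAccaTGacTaT
TRBV13-1 CDR2: tcatatgGTgctgGcaAc
TRBV13-2 CDR2: tcatatgGTgctgGcaGc
TRBV13-3 CDR2: tcatatgTCgctgAcaGc
The TRBV12 genes differed at 4 of the 15 bases of CDR1 and 3 of the 18 bases of CDR2, and the TRBV13 genes at 5 and 4 bases. Of the 1023 contigs with the joined name TRBV12-2+TRBV13-2, 1022 carried the CDR1 of TRBV13-2 and 1022 its CDR2, whereas only 136 contigs were named TRBV13-2 alone. The CDR loops of the joined name are therefore those of TRBV13-2.

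CD8 and CD4 clonotypes drew on the same V genes in different proportions. TRBV12-1, TRBV12-2, TRBV14, TRBV29, TRBV17 and TRBV16 took a larger share of CD8 clonotypes, and TRBV31, TRBV20, TRBV13-2, TRBV1, TRBV15, TRBV3 and TRBV2 a larger share of CD4 clonotypes. In all, 13 of the 19 TRBV genes with at least 20 clonotypes (68.4%) differed by a share ratio of at least 1.5 with the same direction on both days. These genes are all the V genes there are to compare, so the count has no other background. The 95% interval of the ratio excluded 1 for 16 of the 19 genes (84.2%), among them all 13.

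**Figure D1:**
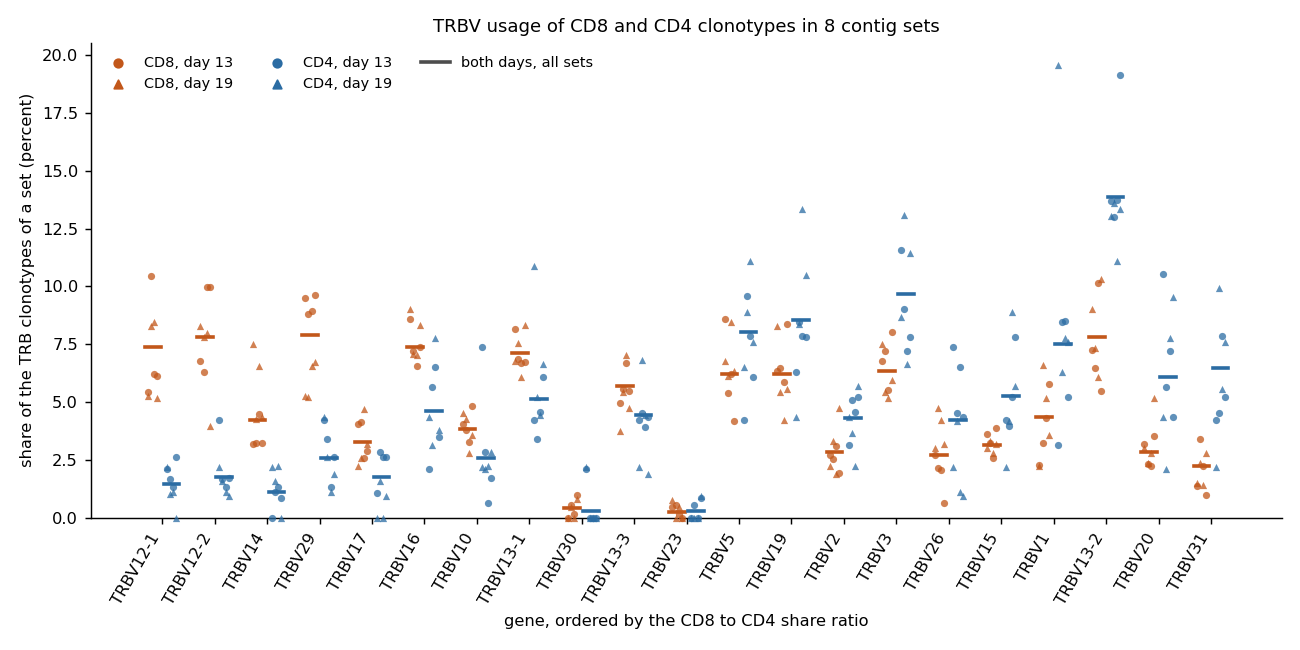
Share of TRB clonotypes (y axis, percent) that used each of 21 TRBV genes (x axis, ordered by the CD8 to CD4 ratio) in each of 8 contig sets. Circles are day 13, triangles day 19, orange CD8, blue CD4, and bars the share over all sets. The CD8 and CD4 points do not overlap for TRBV12-1, TRBV14, TRBV29 and TRBV13-2.

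TRBV12-1 showed the widest ratio. Its share of CD8 clonotypes in the 4 sets of day 13 was 5.43%, 10.5%, 6.20% and 6.11%, and in those of day 19 5.26%, 8.27%, 8.45% and 5.16%. Its share of CD4 clonotypes was 2.11%, 1.69%, 1.31% and 2.61% at day 13 and 2.17%, 1.05%, 1.11% and 0% at day 19. Every CD8 value was thus above every CD4 value. Over both days it was 7.36% (95% interval 6.40% to 8.42%) against 1.44% (0.790% to 2.40%), a share 5.11-fold higher in CD8 with a log2 ratio of 2.35 (1.57 to 3.25).

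TRBV12-2, the other member of that family, gave 7.81% of CD8 and 1.75% of CD4 clonotypes, a log2 ratio of 2.16 (1.45 to 2.97). Its CD8 share was higher in 8 of 8 sets, although the lowest CD8 value, 3.97% in set 4 of day 19, lay under the highest CD4 value, 4.21% in set 1 of day 13. Taken as a family, TRBV12-1 and TRBV12-2 made up 15.8% of CD8 clonotypes at day 13 and 14.1% at day 19, against 3.89% and 2.31% of CD4 clonotypes. The difference thus does not depend on how contigs were divided between the family's genes.

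TRBV14 made up 3.17% to 7.52% of CD8 clonotypes over the 8 sets and 0% to 2.22% of CD4 clonotypes, with a log2 ratio of 1.91 (1.01 to 2.95). TRBV29 ranged from 5.20% to 9.65% in CD8 and from 1.11% to 4.35% in CD4, with a log2 ratio of 1.62 (1.01 to 2.28). The classes did not overlap for either gene. TRBV17 (3.27% against 1.75%, log2 ratio 0.90) and TRBV16 (7.36% against 4.63%, log2 ratio 0.67) were higher in CD8 in 7 of 8 sets each, with overlapping ranges.

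TRBV13-2 was the most used V gene of CD4 clonotypes. Its share of CD4 clonotypes was 13.7%, 13.0%, 13.7% and 19.1% in the sets of day 13 and 13.0%, 13.6%, 11.1% and 13.3% in those of day 19. In CD8 clonotypes it was 7.24%, 6.49%, 10.2% and 5.47% at day 13 and 9.02%, 7.33%, 6.10% and 10.3% at day 19. All CD4 values were above all CD8 values, and the log2 ratio of CD8 over CD4 was -0.83 (-1.15 to -0.51). The related TRBV13-1 and TRBV13-3 went the other way, at 7.10% of CD8 against 5.14% of CD4 clonotypes and 5.69% against 4.42%, without reaching 1.5-fold. The 3 genes together were at 20.5% and 20.8% of CD8 and 23.3% and 23.6% of CD4 clonotypes at day 13 and day 19.

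TRBV31 had the lowest CD8 to CD4 ratio, at 2.23% of CD8 and 6.48% of CD4 clonotypes, a log2 ratio of -1.54 (-2.07 to -1.01). It was lower in CD8 in 8 of 8 sets, with CD8 values from 0.965% to 3.42% and CD4 values from 2.17% to 9.95%. TRBV20 followed, at 2.86% against 6.07% (log2 ratio -1.08, -1.59 to -0.57), lower in CD8 in 7 of 8 sets. TRBV1 (4.35% against 7.51%), TRBV15 (3.16% against 5.25%), TRBV3 (6.36% against 9.67%) and TRBV2 (2.86% against 4.32%) had log2 ratios of -0.79, -0.73, -0.60 and -0.59, and their classes' ranges overlapped. Under the 19 other settings that kept the 1.5-fold rule, TRBV2 passed in 11, TRBV3 and TRBV16 in 13 each, and TRBV15 in 16. TRBV2 had a log2 ratio of -0.28 when each cell was counted. TRBV3 did not pass without set 1 of day 13, set 2 of day 19 or set 4 of day 19 (-0.44 at the nearest to 0), nor TRBV2 without set 2 or set 4 of day 13 or set 1 of day 19, nor TRBV16 without set 1 of day 13 or set 2 of day 19.

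The V genes that did not differ by the rule include TRBV5 and TRBV19, which both classes used often. TRBV5 gave 6.21% of CD8 and 8.02% of CD4 clonotypes, and TRBV19 gave 6.21% and 8.54%. TRBV10 (3.83% and 2.57%) and TRBV26 (2.71% and 4.22%) differed by about 1.5-fold, with log2 ratios of 0.57 and -0.64, but TRBV26 changed side between the days. TRBV23 and TRBV30 were rare in both classes, at 0.260% and 0.409% of CD8 clonotypes, and were not tested.

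Macrophage UMIs were more frequent in CD4 cells, as given above. Without the cells that had at least 3 such UMIs, 1758 CD8 and 393 CD4 clonotypes remained, and 12 TRBV genes passed the rule, 11 of them among the 13. The log2 ratios were then 2.25 for TRBV12-1, 2.47 for TRBV12-2, 1.78 for TRBV14, 2.06 for TRBV29, -1.35 for TRBV31 and -1.05 for TRBV20. TRBV13-2 and TRBV1 no longer reached the 1.5-fold rule, each with a log2 ratio of -0.56.

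A second group of cells gave a separate reading. Of the cells with 1 TRB chain and at least 1000 UMIs that lay under the UMI minimum, 3713 were CD8 (2103) or CD4 (1610), with a median of 4138 UMIs. They shared no cell with the main result, although they came from the same captures and clonotypes can be in both. All 13 genes were on the same side there and 10 of them passed 1.5-fold, but TRBV15, among the 10, was not on the same side on both days. By the full rule 12 of 19 TRBV genes passed there. These included TRBV5, TRBV13-3 and TRBV26, which are not among the 13, with log2 ratios of -0.73, 0.72 and -0.86. TRBV12-1 reached 8.25% of 1710 CD8 clonotypes and 0.890% of 1460 CD4 clonotypes, a log2 ratio of 3.21, and TRBV31 2.51% and 6.58%, a log2 ratio of -1.39. TRBV16 gave the smallest ratio of the 13, with a log2 ratio of 0.19 (-0.24 to 0.62).

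**Figure D2:**
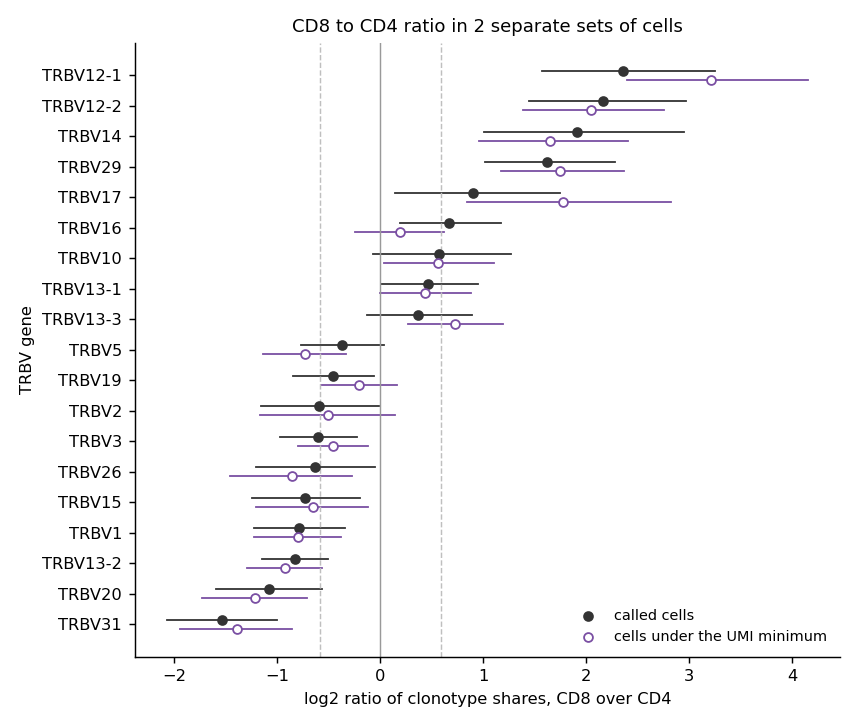
Log2 ratio of the CD8 to the CD4 clonotype share (x axis) for the 19 TRBV genes tested (y axis), in the called cells (filled points) and in the separate cells under the UMI minimum (open points). Lines are 95% intervals from counting error and dashed lines mark a ratio of 1.5. TRBV12-1 is at 2.35 and 3.21 and TRBV31 at -1.54 and -1.39.

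Fewer J genes passed between the classes. TRBJ2-7 was the most used in both, at 23.4% of CD8 clonotypes (21.4% to 26.7% over the 8 sets) and 21.9% of CD4 clonotypes (17.9% to 28.3%). TRBJ2-1 alone passed the 1.5-fold rule, 1 of 12 genes or 8.33%. Its share of CD8 clonotypes was 11.8%, 13.0%, 15.3% and 14.8% in the sets of day 13 and 17.3%, 12.3%, 12.7% and 17.9% in those of day 19, and of CD4 clonotypes 11.6%, 6.78%, 10.5% and 12.2%, then 8.70%, 7.33%, 4.44% and 6.67%. It was higher in CD8 in 8 of 8 sets, although the classes' ranges overlapped at day 13 (the highest CD4 set above the lowest CD8 set), and its log2 ratio was 0.74 (0.40 to 1.11). The cells under the minimum gave 14.5% and 8.42%, a log2 ratio of 0.78.

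TRBJ2-4 (7.33% of CD8 and 10.8% of CD4 clonotypes, log2 ratio -0.56) and TRBJ2-2 (4.57% and 6.58%, -0.53) were lower in CD8 in 7 of 8 sets each. TRBJ1-1 was higher (10.3% and 7.82%, log2 ratio 0.40). With TRBJ2-1 these were the 4 J genes (33.3%) whose interval excluded a ratio of 1. TRBJ2-5 (11.0% and 13.1%), TRBJ2-3 (8.14% and 7.51%), TRBJ1-4 (5.91% and 6.79%), TRBJ1-2 (4.87% and 4.84%), TRBJ1-3 (4.80% and 4.94%), TRBJ1-6 (3.09% and 4.01%) and TRBJ1-5 (2.42% and 3.29%) had intervals that included it.

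**Figure D3:**
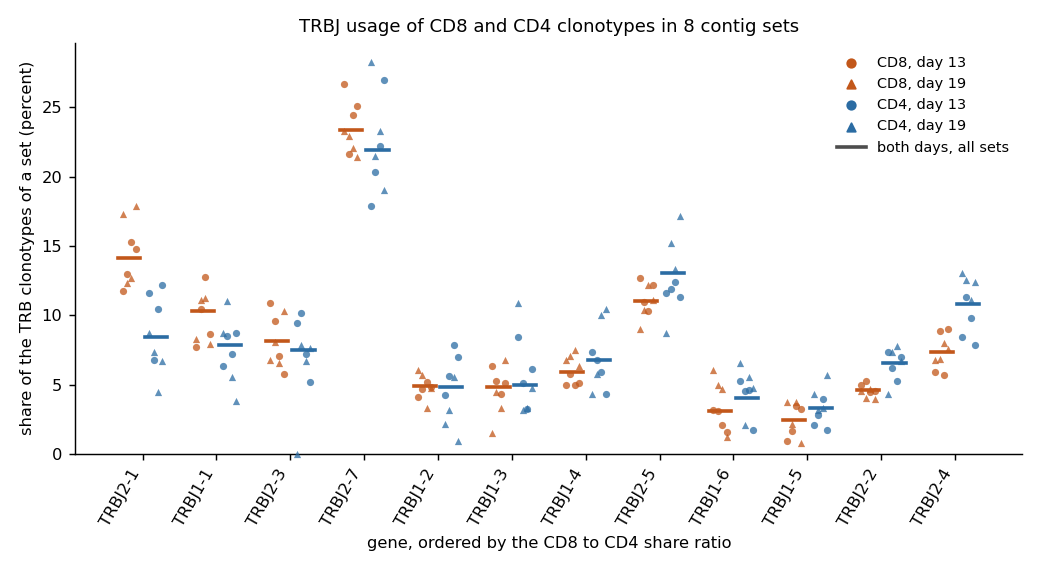
Share of TRB clonotypes (y axis, percent) that used each of 12 TRBJ genes (x axis, ordered by the CD8 to CD4 ratio) in each of 8 contig sets, with circles for day 13, triangles for day 19, orange for CD8, blue for CD4 and bars for all sets. TRBJ2-1 was higher in CD8 in 8 of 8 sets, and TRBJ2-7 was the most used J gene of both classes.

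The second J cluster supplied 68.6% of CD8 and 68.3% of CD4 clonotypes, and the difference between the classes, 0.26 percentage points, was far inside its spread over the 8 sets (SD 4.12). The constant gene followed the J cluster: of the cells with a TRBJ1 gene, 1875 had a contig that named TRBC1 and 0 named TRBC2, and of those with a TRBJ2 gene 4109 named TRBC2 and 0 TRBC1. In the expression matrix, Trbc1 UMIs were present in 64.4% of TRBJ1 cells and 24.9% of TRBJ2 cells. Trbc2 UMIs, however, were present in 69.7% and 69.0%, so the matrix count of Trbc2 did not separate the clusters. Trbc1 and Trbc2 are near-identical copies, so the division of matrix counts between them is uncertain, and its part in this pattern was not tested.

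V and J genes paired broadly. Of the 252 possible pairs 238 were seen in 3661 clonotypes. The 5 pairs with the most clonotypes all used TRBJ2-7: TRBV13-2 with 88, TRBV16 with 73, TRBV12-2 and TRBV13-1 with 60 each, and TRBV19 with 59. These numbers were 1.11, 1.31, 1.15, 1.08 and 1.03 times what the separate V and J shares give. Of the 146 pairs with at least 10 clonotypes expected from those shares, 6 were at least 1.5 times as frequent and 12 were at least 1.5 times less frequent.

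The V gene of a contig can be set against the Trbv UMIs of the same cell in the expression matrix, which came from another library. For 19 of the 21 genes, at least 99.5% of the cells had a UMI of the Trbv gene of the same name, and this share was 79.3% for TRBV5. TRBV10 stood apart, since 0 of its 214 cells had a Trbv10 UMI (an upper limit of 1.71%) while 193 (90.2%) had a Trbv4 UMI. RefSeq marks Trbv10 as a pseudogene and gives Tcrb-V10 as a synonym of Trbv4. With Trbv4 taken for TRBV10, 97.6% of the 6039 cells had a UMI of their own V gene. Among cells of other V genes, UMIs of a Trbv gene were found in under 3% of cells for all but Trbv13-2 (13.6%), Trbv12-2 (7.31%) and Trbv15 (3.55%).

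The UMIs of these genes were not spread evenly over the other V genes. Among cells of TRBV13-3, 47.5% also had a Trbv13-2 UMI (20% to 56.1% over 8 sets), as did 46.2% of TRBV14, 35.4% of TRBV16, 26.7% of TRBV15, 25.3% of TRBV17, 20% of TRBV19 and 11.7% of TRBV20 cells. These genes all lie after Trbv13-2 on the chromosome, from 8.75 kb for TRBV13-3 to 66.9 kb for TRBV20. TRBV26 and TRBV29 lie farther after it, at 106 kb and 150 kb, and their cells were at 7.39% and 5.80%, near TRBV2 (5.80%) and TRBV3 (5.76%), which lie before it. The high shares were thus those of the nearer genes after it. Over all cells whose V gene lies after it (TRBV31 aside) the share was 24.2% (624 of 2581, 22.5% to 25.9%), and over those whose V gene lies before it 4.35% (118 of 2712, 3.61% to 5.19%). The values were 22.9% and 4.65% at day 13 and 25.8% and 4.00% at day 19. In TRBV13-1 cells, whose V gene is of the same family and lies before it, the share was 1.59% to 11.8% over the 8 sets.

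Trbv12-2 UMIs showed the same order, in 11.2% of cells with a V gene after it and 2.54% of those with one before it, and were present in 24.9% of TRBV13-2 cells. Leaving aside TRBV31, which lies beyond the J genes, and the rare TRBV23 and TRBV30, 14 of 256 pairs of a contig V gene with a matrix gene before it were above 10%, and 0 of 338 pairs with a matrix gene after it. Cells of 1 clonotype are not independent, and 11 of the 14 pairs stayed above 10% without the largest clonotype of the contig V gene. The pairs of TRBV26 with Trbv15 and Trbv16, at 26.5% and 11.7%, rested on 1 clonotype of day 19, in which 63 of 69 cells had a Trbv15 UMI, and fell to 2.66% and 1.06% without it. TRBV16 with Trbv12-2 went from 10.2% to 7.73%, and TRBV16 with Trbv13-2 from 35.4% to 28.7%, without a clonotype of 48 cells. TRBV13-3 and TRBV14 with Trbv13-2 were at 46.8% and 45.6%. Trbv12-1, Trbv3 and Trbv19 differed less, with intervals that overlapped, at 0.924% and 1.65%, 2.64% and 1.85%, and 2.88% and 3.33% for cells with a V gene before and after.

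**Figure D4:**
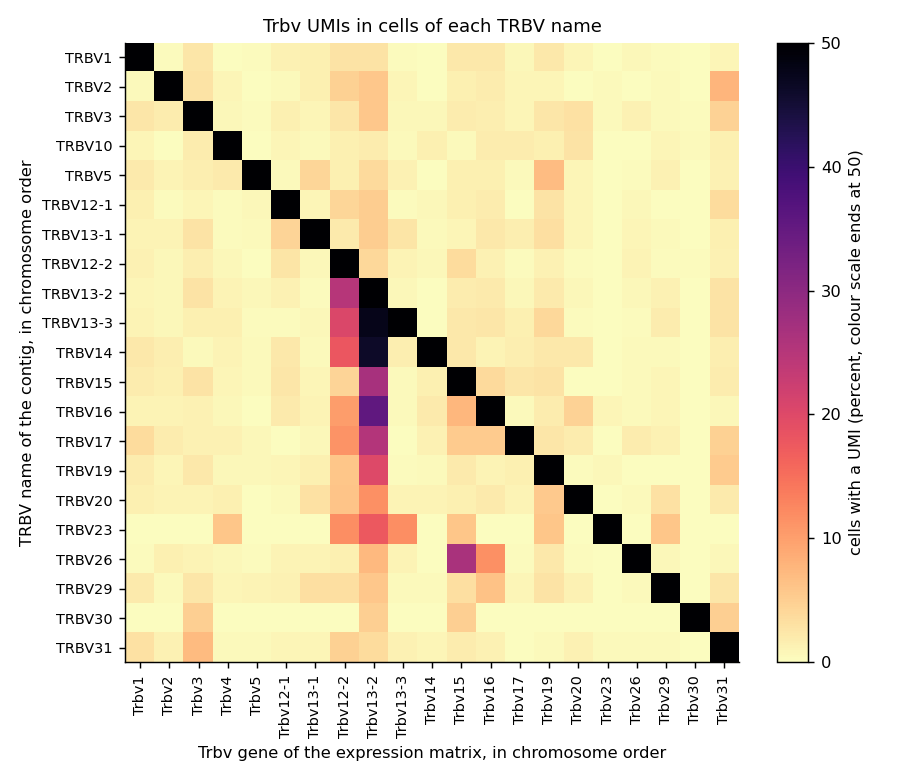
Percent of cells with a UMI of each Trbv gene in the expression matrix (columns) among cells whose contig named each TRBV gene (rows), both in chromosome order, with TRBV10 at the place of Trbv4 and the colour scale ending at 50. Off the diagonal, the Trbv13-2 column is darkest for the V genes from TRBV13-3 (47.5%) to TRBV19 (20%), and the dark Trbv15 square of TRBV26 rests on 1 clonotype.

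The antibody panel of 138 tags held one tag against V beta 5 and one against V beta 8, the older names of the TRBV12 and TRBV13 families. The V beta 5 tag had a median of 27 counts in the 419 TRBV12 cells and 24 in the 2900 other cells at day 13, and 15 and 12 at day 19. For V beta 8 the medians were 52 in TRBV13 cells and 50 in the others at day 13, and 28 and 27 at day 19. The median of an IgG1 control tag was 12 at day 13 and 6 at day 19. The medians of either tag thus differed by at most 3 counts between the cells of its V genes and the rest, and the tags were not used further.

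CDR3 length differed between J genes. The consensus bases that clonotypes of a J gene share at the end of the CDR3 (each base carried by at least 50% of the clonotypes) are shown for TRBJ2-7 and TRBJ1-1, with the shortest mean CDR3s, TRBJ2-2, TRBJ2-3 and TRBJ1-3, with the longest, and TRBJ2-1, which differed between the classes.
TRBJ2-7: tatgaacagtacttc
TRBJ1-1: aacacagaagtcttcttt
TRBJ2-1: ctatgctgagcagttcttc
TRBJ2-3: agtgcagaaacgctgtatttt
TRBJ2-2: aacaccgggcagctctacttt
TRBJ1-3: ttctggaaatacgctctatttt
TRBJ2-7 supplies 15 bases and its clonotypes had a mean CDR3 of 13.4 amino acids (841 clonotypes). TRBJ1-1, with 18 bases, had the shortest mean, 13.3 (SD 1.29). TRBJ2-2 and TRBJ2-3, each with 21 bases, had the longest means, 14.6 (SD 1.25) and 14.5 (SD 1.31), and TRBJ1-3, with 22 bases, had 14.3 (SD 1.22). TRBJ2-1 reached 14.2 (SD 1.42) with 19 bases. Among V genes with at least 20 clonotypes the means ran from 13.0 for TRBV20 (SD 1.10) to 14.5 for TRBV5 (SD 1.43).

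Mean CDR3 lengths of CD8 and CD4 clonotypes were 13.9 and 13.8 amino acids with a median of 14 in both, a difference of 0.111. It was 0.0847 to 0.131 when each set was left out, 0.0624 with all productive chains and 0.162 per cell. The difference was positive in 6 of 8 sets and ran from -0.0322 to 0.299, with an SD over sets of 0.118, so that it was no larger than the spread between sets. More of the CD4 than of the CD8 clonotypes, 87.7% and 81.9%, lay between 12 and 15 amino acids. At day 13 these shares were 88.1% and 81.1% and at day 19 87.0% and 83.2%. The SD of length was 1.31 in CD4 and 1.46 in CD8 at day 13, but 1.40 and 1.41 at day 19. The bases between the parts that match the V and J consensus, which include the D segment and bases added at the joins, had a mean of 11.1 (SD 3.95) in CD8 and 10.8 (SD 3.80) in CD4 clonotypes.

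**Figure D5:**
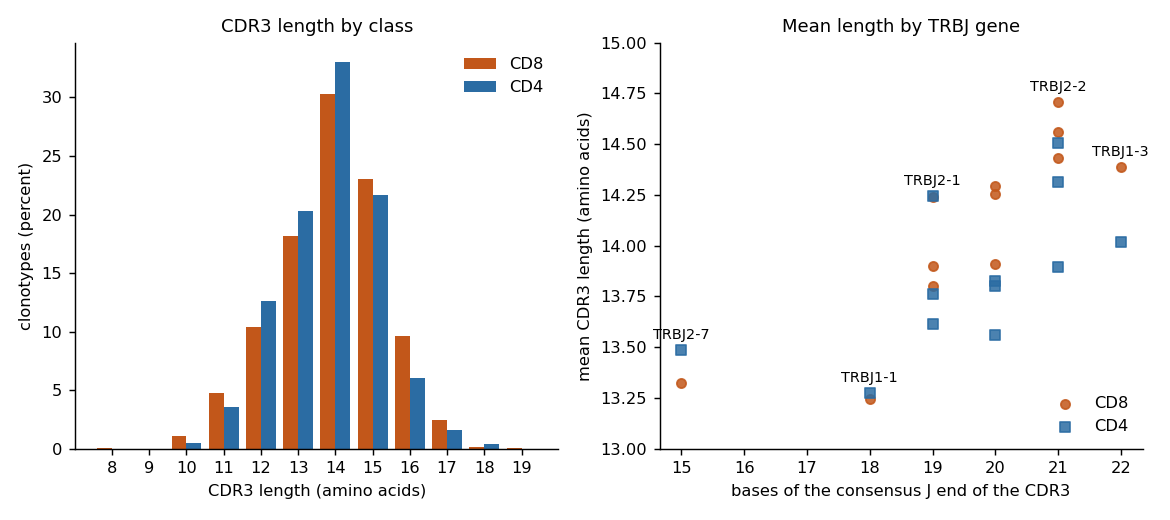
Left, percent of CD8 (orange) and CD4 (blue) clonotypes at each CDR3 length in amino acids. Right, mean CDR3 length (y axis, from 13 to 15) against the number of bases of the consensus J end (x axis) for 12 TRBJ genes in each class, where TRBJ2-7, with 15 bases, and TRBJ1-1, with 18, have the shortest CDR3s.

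Within CD4 cells, Foxp3 was detected in 176 cells at day 13 and 224 at day 19, which was 31.1% and 33.6% of CD4 cells at median depths of 9961 and 10562 UMIs. In CD8 cells it was detected in 2.51% and 2.55%, at 8107 and 9902 UMIs. Il2ra, the alpha chain of the IL-2 receptor, was detected in 64.8% and 83.5% of the CD4 cells with Foxp3 and Ikzf2 (Helios, a transcription factor of many regulatory T cells) in 85.2% and 94.6%. In CD4 cells with no Foxp3 UMI the shares were 16.4% and 30.5% for Il2ra and 26.7% and 36.8% for Ikzf2, and in CD8 cells 16.4% and 23.2%, and 37.4% and 46.6%. The CD4 cells with Foxp3 were deeper at day 19 than those without, with a median of 14056 UMIs against 9624. Their V usage was compared with that of CD4 cells with no Foxp3 UMI, which at this depth can include cells that express it. Of the 15 TRBV genes tested, 5 (33.3%) passed a share ratio of 1.5, but the interval included a ratio of 1 for all 15, and each of these intervals reached past 1.5-fold on at least 1 side. TRBV1 was at 9.60% of 354 clonotypes with Foxp3 and 6.24% of 641 without (log2 ratio 0.62, -0.08 to 1.32), and TRBV2 at 5.65% and 3.59% (0.65, -0.29 to 1.58). The log2 ratio of TRBV2 turned to -0.08 without the cells that had at least 3 macrophage UMIs, where 1 TRBV gene passed in place of 5, and to -0.86 in the cells under the minimum. TRBV10 (1.69% and 3.12%), TRBV13-1 (3.67% and 5.93%) and TRBV29 (1.69% and 2.96%) were lower, with 6, 13 and 6 clonotypes with Foxp3. TRBV12-2, with 12 clonotypes with Foxp3 and 7 without, was under the minimum of 20 and not tested, and stood at 3.39% and 1.09% (log2 ratio 1.63, 0.17 to 3.22).

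Of the J genes, TRBJ1-2 (3.39% and 5.62%) and TRBJ1-5 (2.26% and 3.74%) passed the ratio with intervals that included 1, 2 of 12 or 16.7%. Mean CDR3 length was 13.8 in both groups, with a difference of -0.0471 amino acids that was positive in 3 of 8 sets, with an SD over sets of 0.275. Between 12 and 15 amino acids lay 90.7% of the clonotypes with Foxp3 and 86.0% of those without. Hydrophobic residues at both position 6 and position 7 of the CDR3 were found in 5.26% and 2.67% of the clonotypes with and without Foxp3 at day 13, and in 3.83% and 2.25% at day 19, with intervals that overlapped on both days.

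Expanded clonotypes, those with at least 3 cells of a class in a set, numbered 133 in CD8 (84 at day 13 and 49 at day 19) and 43 in CD4 (2 and 41). They were compared with 2445 and 856 clonotypes of exactly 1 cell. A clonotype that reached 3 cells in several sets of a day entered once for each set. The numbers can thus exceed those of distinct sequences, and the intervals treat such entries as independent. In CD8, 4 of 19 TRBV genes (21.1%) passed the ratio, but the number was not stable. With the clonotypes of a day merged over its sets, 7 passed. The number was 10 without the cells that had at least 3 macrophage UMIs and 9 with paired alpha and beta clonotypes. It was 9 without set 3 of day 13, 8 without set 2 and 7 without set 4 of day 19, and 2 in the cells under the minimum. TRBV5 was higher, at 11.3% of expanded and 5.89% of single clonotypes (log2 ratio 0.94, 0.06 to 1.71), and was the only gene whose interval excluded a ratio of 1 (5.26% of those tested). At day 13 it stood at 5.95% and 5.79% and at day 19 at 20.4% and 6.05%, so that the difference lay in the 10 expanded TRBV5 clonotypes of day 19. In the cells under the minimum the log2 ratio was -0.24, and without set 1 or set 3 of day 13 the days were no longer on the same side.

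TRBV3 (3.01% and 6.67%), TRBV12-2 (3.76% and 8.30%) and TRBV13-2 (3.76% and 8.10%) were lower among expanded CD8 clonotypes, each on 4 or 5 expanded clonotypes. Of the J genes, TRBJ1-4 was at 10.5% and 5.73% (log2 ratio 0.88, -0.03 to 1.67) and TRBJ1-3 at 2.26% and 4.95%, 2 of 12 or 16.7%. The mean CDR3 was 14.1 amino acids in expanded and 13.9 in single CD8 clonotypes, a difference of 0.218 that was positive in 7 of 8 sets. It ran from -1.09 to 0.909 over the sets, with an SD of 0.583, and was 0.0584 with expanded taken as at least 2 cells and 0.0494 in the cells under the minimum. In CD4, TRBV1, TRBV2, TRBV13-3 and TRBV15 passed the ratio (4 of 15, 26.7%), but on 1 or 2 expanded clonotypes each, and all 15 intervals included a ratio of 1. TRBV5 and TRBV20, also tested, had 0 of 43 expanded clonotypes, against 8.06% and 6.19% of the single ones. Their ratios were limited by a floor of 3 counts, so neither counted as passing. With 2 expanded CD4 clonotypes at day 13, these values come almost wholly from day 19, and a gene that neither of the 2 used could pass only as lower. No TRBV gene passed without the cells that had at least 3 macrophage UMIs, and 1 passed without set 2 or without set 4 of day 19. Without set 2, TRBV2, TRBV13-3 and TRBV15 turned to log2 ratios of 0.48, 0.62 and 0.12.

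Counting cells in place of clonotypes gives large clonotypes their weight. TRBV5 made up 6.76% of CD8 clonotypes at day 19 and 17.8% of CD8 cells, and TRBV26 4.02% and 8.17%. One clonotype supplied 149 of the 278 TRBV5 cells and another 69 of the 128 TRBV26 cells. Without these the cell shares were 9.10% and 3.94%. In CD4 cells at day 19, TRBV31 made up 7.64% of clonotypes and 11.7% of cells, of which 1 clonotype supplied 33 of 78.

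The largest clonotype of each set is shown with its V gene, J gene and CDR3 nucleotides. Other large clonotypes are not shown, such as the second largest of day 19 set 2, with 69 cells. Capitals mark the bases between the V and J consensus.
Day 13 set 1, TRBV5 TRBJ1-4: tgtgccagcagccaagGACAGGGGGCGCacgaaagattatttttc
Day 13 set 2, TRBV1 TRBJ1-1: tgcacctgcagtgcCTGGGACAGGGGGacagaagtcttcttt
Day 13 set 3, TRBV29 TRBJ2-7: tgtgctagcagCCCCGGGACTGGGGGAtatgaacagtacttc
Day 13 set 4, TRBV16 TRBJ2-7: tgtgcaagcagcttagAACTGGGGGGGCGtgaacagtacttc
Day 19 set 1, TRBV19 TRBJ2-4: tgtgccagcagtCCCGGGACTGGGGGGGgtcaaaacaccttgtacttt
Day 19 set 2, TRBV5 TRBJ2-5: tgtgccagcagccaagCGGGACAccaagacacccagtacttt
Day 19 set 3, TRBV16 TRBJ2-7: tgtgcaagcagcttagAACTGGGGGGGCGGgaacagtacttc
Day 19 set 4, TRBV10 TRBJ2-1: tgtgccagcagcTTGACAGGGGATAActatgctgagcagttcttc
All 8 consisted of CD8 cells. They held 8, 31, 14 and 32 cells in the sets of day 13, which was 2.22%, 2.99%, 1.64% and 6.36% of the CD8 and CD4 cells of the set. At day 19 they held 9, 149, 48 and 22 cells, or 3.90%, 13.5%, 11.2% and 4.64%. The TRBV5 clonotype of day 19 set 2 had the shortest stretch between the V and J parts, 7 bases, against 12 to 16 in the others. Of its 149 cells, 137 carried a second alpha chain. None of the 8 had a cell on the other day, but 7 of them had further cells in other sets of the same day. For the TRBV19 clonotype of day 19 set 1 these were 10 cells against 9 in its own set, and for the other 6 they were 1 to 6 cells.

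Some beta chains recurred. The nucleotide clonotype was found in several sets of 1 day for 284 of 9653 clonotypes (2.94%) and on both days for 35 (0.363%). With the CDR3 compared as amino acids, 95 of 9465 (1.00%) were on both days, spread over 19 of the 21 TRBV genes. The share of a gene's clonotypes ran up to 1.52% for TRBV20 (6 of 395), and was 1.42% for TRBV5 (9 of 635) and 1.17% for TRBV13-2 (11 of 942). The beta chains found on both days had a shorter middle, with a mean of 9.51 bases (SD 3.79) between the V and J parts against 11.1 (SD 3.90) in the rest, and 22.7% against 11.4% had 6 or fewer.

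The recurrent beta chains found in the most sets are printed with their nucleotide variants, since the variants differ in bases but translate to the same amino acids. Capitals mark the bases at which the variants differ.
TRBV16 TRBJ2-7, day 19: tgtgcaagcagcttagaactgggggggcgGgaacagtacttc
TRBV16 TRBJ2-7, day 13: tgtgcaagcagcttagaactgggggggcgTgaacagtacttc
TRBV5 TRBJ2-5, day 13: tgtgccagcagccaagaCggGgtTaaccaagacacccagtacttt
TRBV5 TRBJ2-5, days 13 and 19: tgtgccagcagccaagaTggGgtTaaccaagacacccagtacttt
TRBV5 TRBJ2-5, day 13: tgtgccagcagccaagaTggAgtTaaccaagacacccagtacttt
TRBV5 TRBJ2-5, day 13: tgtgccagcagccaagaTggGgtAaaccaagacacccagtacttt
TRBV13-2 TRBJ2-5, day 13: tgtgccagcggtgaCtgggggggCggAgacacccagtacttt
TRBV13-2 TRBJ2-5, day 19: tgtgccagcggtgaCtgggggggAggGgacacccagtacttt
TRBV13-2 TRBJ2-5, day 19: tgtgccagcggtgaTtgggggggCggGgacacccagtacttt
TRBV13-2 TRBJ2-5, day 13: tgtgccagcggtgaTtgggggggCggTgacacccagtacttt
The TRBV16 chain was on 91 barcodes of 5 sets. The variant with G was on 53 barcodes of day 19 only, 50 of them in set 3, and the variant with T on 38 barcodes of day 13 only, 32 of them in set 4. Of the called cells, 51 and 35 were CD8 and 0 were CD4. This is the same pair of sequences that led set 4 of day 13 and set 3 of day 19. The TRBV5 chain was on 15 barcodes of 5 sets in 4 variants, with 4 CD4 and 0 CD8 cells among those called, and the TRBV13-2 chain on 8 barcodes of 5 sets in 4 variants, with 3 CD4 and 0 CD8 cells. A further pair of chains, TRBV5 with TRBJ2-5 on 159 barcodes and TRBV3 with TRBJ2-4 on 21, were in 4 sets of day 19, each as 1 nucleotide sequence, with 151 and 16 of the barcodes in set 2.

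Between the days, few V genes passed the ratio. In CD8, 2 of 19 TRBV genes (10.5%) passed a ratio of 1.5. TRBV26 was at 1.92% at day 13 (2.71%, 2.16%, 2.07% and 0.643% in the 4 sets) and 4.02% at day 19 (3.01%, 4.73%, 4.23% and 3.17%), with 1.07 (0.36 to 1.78) as its log2 ratio. TRBV29 was at 9.11% at day 13 (9.50%, 8.83%, 8.95% and 9.65%) and 5.88% at day 19 (5.26%, 5.20%, 6.57% and 6.75%), with -0.63 (-1.09 to -0.19) as its log2 ratio. For both genes, each day 19 set lay outside the range of day 13. That was not particular to genes that passed, since it also held for TRBJ1-4 in CD8 (4.98% to 5.77%, then 6.35% to 7.51%). How many genes separate in this way was not counted. TRBV29 did not reach 1.5-fold without set 2 of day 19 (-0.52), and in the cells under the minimum neither TRBV29 (-0.30) nor TRBV26 (0.39) did. In CD4, 1 of 15 (6.67%) passed: TRBV26 was at 5.56% at day 13 and 2.55% at day 19, a log2 ratio of -1.13 (-2.27 to -0.09), but 0.06 in the cells under the minimum.

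TRBV26 therefore stood higher at day 19 in CD8 and lower in CD4, and the difference between these changes was not tested. Of the J genes, TRBJ1-6 was at 2.46% and 4.11% of CD8 clonotypes at day 13 and day 19 (log2 ratio 0.74, 1 of 12 or 8.33%), and TRBJ1-2 at 6.30% and 3.01% of CD4 clonotypes (log2 ratio -1.07, also 8.33%). Set 4 of day 19 went the other way for TRBJ1-6, at 1.19%, under all day 13 sets (1.61% to 3.17%). Mean CDR3 length was 13.9 amino acids on both days in CD8, with a difference of -0.0168. In CD4 it was 13.9 at day 13 and 13.8 at day 19, a difference of -0.0903 against an SD over sets of 0.103.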

How the data were processed

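Single-cell 5′ libraries were made from 1 capture a day. Per the submitters' processing notes, Cell Ranger 4.0.0, STAR 2.7.5c, bcl2fastq 2.20, R 4.1.2 and Seurat were used with mm10. The deposited matrices hold UMI counts per gene and antibody tag for every barcode, and the deposited contig tables hold UMI counts per contig with the V, J and CDR3 calls, as the authors' pipeline gave them, per the file headers. The labels do not state which mice a contig set holds.

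A barcode was kept as a cell above a UMI minimum, set to 10% of the 99th percentile over the 10000 deepest barcodes (5674 and 5287 UMIs), with 500 or more genes and no more than 10% of its UMIs mitochondrial. This left 7769 cells at day 13 and 4513 at day 19. No doublet caller was run, and cells with other than 1 productive TRB chain were left out. Shares carry exact Clopper-Pearson 95% intervals and ratios exact conditional intervals. A gene was tested with at least 20 clonotypes in both groups together, and passed with a share ratio of at least 1.5 on the same side on both days (for contrasts between days, the ratio alone). The genes named are those that passed in a comparison, all TRBJ genes and each TRBV gene with at least 5% of CD8 or CD4 clonotypes, with the 5 most frequent V-J pairs, the CDR3s found in the most sets (at most 5) and the largest clonotype of each set. TRBV12-2 in the Foxp3 comparison, TRBV10, TRBV23, TRBV26 and TRBV30 between classes, and the Trbv pairs were named after their values were seen. The members and lists were chosen with earlier results of these data known. The calculation was tested on simulated data. Gene positions are RefSeq's for GRCm38.p6, and 33 of the members matched by symbol. Shares were computed with pandas 2.3.3, numpy 2.4.6 and scipy 1.17.1. Alternatives changed the unit counted, the cells, the class rule, the ratio and the sets used.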

Additional observations from a re-analysis of the deposited data

Results flagged for a closer look

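In 68 groups of 4 sets (a gene in a class on a day), 6 had 1 set far from the other 3 by Dixon's criterion, which by chance picks about 5 percent of groups. TRBV12-1 made up 10.45% of CD8 clonotypes in set 2 of day 13, against 5.43% to 6.196% in the other sets. TRBV12-2 made up 3.968% in set 4 of day 19, against 7.801% to 8.271%, and TRBV13-1 8.145% in set 1 of day 13, against 6.713% to 6.847%. Among CD4 clonotypes, TRBV1 made up 19.57% in set 1 of day 19, against 6.283% to 7.778%, and TRBV13-2 19.13% in set 4 of day 13, against 12.99% to 13.73%. TRBJ2-3 was at 0% of CD4 clonotypes in set 1 of day 19, against 6.667% to 7.853%. That set had the fewest CD4 clonotypes, 46.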

How the results depend on the processing

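The 13 TRBV genes that differed between CD8 and CD4 kept their direction under all settings run. Their number was 6 with a ratio of at least 2, 11 to 14 when each set was left out, and 9 to 14 under the other settings, the lowest with all chains. For TRBJ the number was 3 per cell, 2 with paired alpha and beta clonotypes, 2 with all chains, 3 with at least 2 UMIs for a class, 2 without macrophage-positive cells, 2 with contigs of at least 3 UMIs, 0 with a ratio of at least 2, and 1 to 3 when a set was left out. For Foxp3 it was 3 with paired clonotypes, 3 merged over sets, 1 without macrophage-positive cells, 3 with at least 40 clonotypes, 0 with a ratio of at least 2, 3 in the cells under the minimum, and 3 to 6 without a set. For expanded CD8 clonotypes it was 9 paired, 7 merged, 10 without macrophage-positive cells, 2 under the minimum and 4 to 9 without a set. For expanded CD4 clonotypes it was 1 paired, 1 with at least 2 class UMIs, 0 without macrophage-positive cells, 2 with a ratio of at least 2 and 1 to 4 without a set. Between days in CD8 it was 5 per cell, 1 merged, 1 with a minimum of 1000 UMIs and 1 with a ratio of at least 2. In CD4 it was 4 per cell, 3 paired, 0 with a minimum of 1000 UMIs, 3 with at least 2 class UMIs, 2 with contigs of at least 3 UMIs, 4 under the minimum and 1 to 3 without a set. The CD8 length difference between days was 0.1304 per cell. Cells with their own Trbv UMI were 96.9% with a minimum of 1000 UMIs and 96.05% under the minimum.

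Directions of the log2 ratio turned for TRBV2 with Foxp3 (-0.07856 without macrophage-positive cells, -0.8583 under the minimum), TRBV5 in expanded CD8 (-0.2361 under the minimum) and TRBV26 between days in CD4 (0.05594 under the minimum). In expanded CD4, TRBV13-3 was 0.2682 paired and TRBV15 0.008993 with a minimum of 1000 UMIs, while TRBV2 and TRBV15 were 0.1747 and 1.186 under the minimum. With each set left out in turn, TRBV2 ran from -0.981 to 0.4818, TRBV13-3 from -1.088 to 0.6238 and TRBV15 from -1.403 to 0.1242, the highest each without set 2 of day 19. The causes were not tested. The cells under the minimum, the V names as deposited, the minimum of 1000 UMIs for the own Trbv share and the pairs without the largest clonotype were chosen after seeing the data. The groups of a day were paired by contig set, with the counts of sets and the SD over sets given beside the results. The libraries themselves could not be paired, since each is the single replicate of its day.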
